A study of Mus musculus with 2 samples.

Results

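The genes described here are 40 enzymes and regulators of the tricarboxylic acid (TCA) cycle, of the breakdown of branched-chain amino acids and of the transamination reactions that join these pathways. They were taken by name as members of these pathways, and all 40 were found among the 34745 Ensembl gene identifiers of the count table by their GENCODE M21 symbols on GRCm38. The samples were 2 RNA-seq libraries of gastrocnemius, a large calf muscle, from C57BL/6 mice aged 8 weeks. One library is labelled Cry2scko and the other Cry2flox/flox (called Cry2flox below), where Cry2 encodes the clock repressor cryptochrome 2 and flox marks an allele built for removal by a recombinase. The abbreviation scko is not explained in the labels, which name no recombinase or promoter driving one, and give neither the hour of collection nor the number of animals behind each library.

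The TCA cycle oxidises acetyl-CoA in the mitochondrial matrix and passes electrons to the respiratory chain, and its intermediates are refilled by carboxylation of pyruvate and by transamination of amino acids. Skeletal muscle is a major site of the transamination of leucine, isoleucine and valine, which lose their amino group to form ketoacids. A mitochondrial ketoacid dehydrogenase complex then commits these to oxidation. A kinase switches that complex off by phosphorylation and a phosphatase switches it on. Each of the 3 carbon skeletons then follows its own branch, ending in acetyl-CoA, in ketone bodies or, through propionyl-CoA, in the TCA intermediate succinyl-CoA.

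There was 1 library per genotype, so no difference between animals could be tested, no p-value is given, and fewer cells of a type cannot be told apart from less RNA per cell. The Cry2scko library held 16423884 counted reads and the Cry2flox library 18909433. Levels are given as reads, as CPM (reads scaled to library size with TMM factors) or, for comparison between genes, as the deposited FPKM (per length). Each ratio is Cry2scko over Cry2flox on the log2 scale with 0.5 reads added, and its 95% interval is an exact counting interval. These intervals cover counting error only, and since the reads carry no molecular identifiers they may understate it. Cry2 itself had 133 reads (8.04 CPM) in Cry2scko and 676 reads (36.0 CPM) in Cry2flox, a log2 ratio of -2.16 (-2.44 to -1.89). The muscle fibre markers Acta1 and Ckm were abundant in both libraries, with Ckm at 16176 CPM in Cry2scko and 15897 CPM in Cry2flox.

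Most of the 40 genes stood at nearly equal levels in the Cry2scko and Cry2flox libraries. The log2 ratios had a median of -0.02 and quartiles at -0.12 and 0.06, beside a median of -0.00 and quartiles of -0.17 and 0.18 over the 12832 genes with a mean of at least 1 CPM. Of the 40, 32 lay within 1.25-fold and 36 within 1.5-fold, beside 71.8% and 87.2% of all genes compared. Among genes with a mean of 20 CPM or more these shares were 83.3% and 94.4% of the 36 genes of the list and 87.8% and 96.0% of all genes. The exceptions past 1.5-fold were Suclg2 and Me2, higher in Cry2scko, and Acadsb and Bcat1, lower in Cry2scko.

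A gene was called where it differed at least 2-fold and its counting interval left out equality. By this rule 0 of the 40 genes were higher and 1 was lower, against 3.37% and 1.51% of all genes compared and 4.88% in either direction. At 1.5-fold the counts were 2 higher and 2 lower, against 6.56% and 4.35% of all genes and 10.9% in either direction. The 4 of 40 past 1.5-fold in either direction lie near the background, and on so few genes none of these counts is read as a result about the list. Counting intervals excluded 1 for 19 of the 40, 6 higher and 13 lower, beside 33.5% of all genes, 16.3% higher and 17.3% lower. Abundant genes have narrower intervals. Among genes with a mean of 20 CPM or more, 43.3% had such an interval, 17.4% higher and 25.9% lower, and 17 of the 36 genes of the list at that level did, 5 higher and 12 lower. At that level 1.58% of all genes and 0 of the 36 passed 2-fold, and 4.0% and 2 of the 36 passed 1.5-fold.

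**Figure D1:**
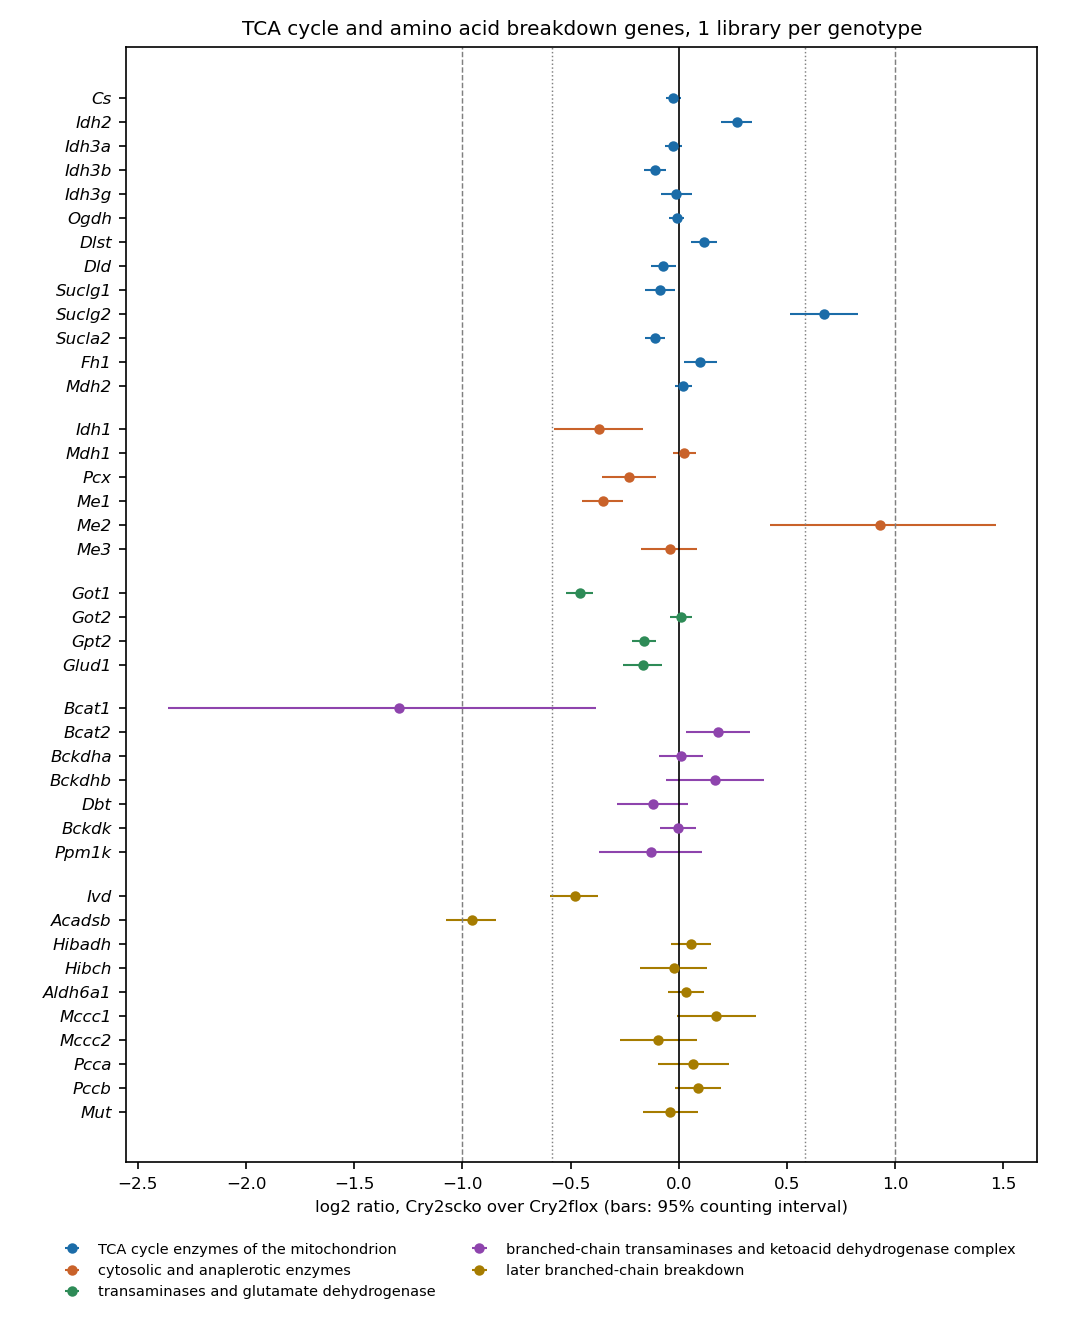
Log2 ratio of Cry2scko over Cry2flox (horizontal axis) for each of the 40 genes, coloured by role, with bars for the 95% counting interval, dotted lines at 1.5-fold and dashed lines at 2-fold. Of the 40 points, 36 lie between the dotted lines, and Bcat1, with the widest interval, is the one beyond a dashed line.

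The promoters of the well-counted genes that differed most in each direction, Acadsb and Suclg2, are shown with that of Mccc2, a gene near equality that holds the canonical E-box, the hexamer bound by the clock activators that cryptochromes repress. Each sequence is the 250 bases before the RefSeq transcription start on GRCm38.p6, written 5′ to 3′ on the strand of the gene, with any E-box (CACGTG, which reads the same on both strands) in capitals.
Acadsb, chr7:131410351-131410600, plus strand: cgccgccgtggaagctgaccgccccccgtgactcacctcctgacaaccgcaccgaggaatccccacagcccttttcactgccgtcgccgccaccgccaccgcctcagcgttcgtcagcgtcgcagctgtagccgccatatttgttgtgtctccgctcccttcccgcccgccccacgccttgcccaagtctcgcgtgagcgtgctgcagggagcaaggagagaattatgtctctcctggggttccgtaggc
Suclg2, chr6:95718847-95719096, minus strand: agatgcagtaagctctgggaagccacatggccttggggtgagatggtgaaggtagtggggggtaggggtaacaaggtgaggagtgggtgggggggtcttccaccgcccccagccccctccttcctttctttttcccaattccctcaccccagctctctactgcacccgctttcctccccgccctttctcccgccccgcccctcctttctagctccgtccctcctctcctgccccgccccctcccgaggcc
Mccc2, chr13:100015640-100015889, minus strand: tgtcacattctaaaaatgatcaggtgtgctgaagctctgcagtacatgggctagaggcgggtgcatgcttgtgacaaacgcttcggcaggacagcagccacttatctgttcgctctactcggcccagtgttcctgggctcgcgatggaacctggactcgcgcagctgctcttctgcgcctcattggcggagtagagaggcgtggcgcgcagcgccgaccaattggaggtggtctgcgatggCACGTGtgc
The E-box of Mccc2 begins 9 bases before the start, and the windows of Acadsb and Suclg2 hold 0 matches. RefSeq windows, from 250 bases before to 50 after a start, were matched by symbol for 36 of the 40 genes. An E-box was present for 3 of the 36, Mccc2, Ogdh and Pcx, beside 8.09% of 27025 genes with a window. The nuclear receptor half-site AGGTCA, on either strand, was present for 13 of the 36, beside 18.1% of all genes. The same half-site preceded by TCA, the extended element of the estrogen-related receptors, was present for 0 of the 36, beside 0.466% of all genes. Every extended element also counts as a half-site. A gene was counted where any of its windows held the match, with 49 windows for the 36 genes and 32851 for all 27025 genes. The shares are therefore not drawn from the same number of windows per gene. These are letter matches in short windows and do not show binding.

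Enzymes of the TCA cycle in the mitochondrion were nearly level between the libraries, apart from Suclg2. Of 13 genes, 0 passed 2-fold, 1 passed 1.5-fold, and the median log2 ratio was -0.01. Together they held 4727 CPM in Cry2scko and 4752 CPM in Cry2flox, a log2 ratio of the sums of -0.01 (-0.02 to 0.01). Citrate synthase (Cs), which admits acetyl-CoA to the cycle, had 11812 reads or 714.2 CPM in Cry2scko and 13644 reads or 726.6 CPM in Cry2flox, at -0.02 (-0.06 to 0.01). Ogdh, the decarboxylase of the oxoglutarate dehydrogenase complex, had 717.4 CPM in Cry2scko and 722.5 CPM in Cry2flox, at -0.01 (-0.05 to 0.03). Malate dehydrogenase (Mdh2), the last step of the cycle, had 630.1 CPM in Cry2scko and 620.6 CPM in Cry2flox. These 3 abundant genes had intervals that held a ratio of 1. For Mdh2, at 0.02 (-0.02 to 0.06), this depends on the scaling in the way given below for Dld.

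Small differences with counting intervals that excluded 1 were seen for other steps. Dlst, the transferase core of the oxoglutarate dehydrogenase complex, was at 0.12 (0.06 to 0.18), with 265.4 CPM in Cry2scko and 245.0 CPM in Cry2flox. Its shared dehydrogenase Dld, which also serves the pyruvate and branched-chain complexes, was at -0.07 (-0.13 to -0.01). Fumarase (Fh1) was at 0.10 (0.02 to 0.17). Each of these was less than 1.1-fold in size. The upper end of the Dld interval is nearer to equality than the shift of 0.02 between TMM and total-count scaling. Whether that interval excludes 1 therefore depends on the scaling, and the same holds for Suclg1 below.

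Isocitrate dehydrogenase occurs as an NAD-dependent enzyme of the cycle, built from Idh3a, Idh3b and Idh3g, and as NADP-dependent enzymes in the mitochondrion (Idh2) and the cytosol (Idh1). The catalytic Idh3a had 9195 reads in Cry2scko and 10621 reads in Cry2flox, at -0.02 (-0.07 to 0.02). Idh3g was at -0.01 (-0.08 to 0.06) and Idh3b at -0.11 (-0.16 to -0.06). The NADP forms differed in opposite directions. Idh2 had 3202 reads or 193.6 CPM in Cry2scko and 3020 reads or 160.8 CPM in Cry2flox, at 0.27 (0.20 to 0.34). Idh1 had 327 reads or 19.8 CPM in Cry2scko and 480 reads or 25.6 CPM in Cry2flox, at -0.37 (-0.58 to -0.16). Idh2 was thus 1.20-fold higher and Idh1 1.29-fold lower in Cry2scko.

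Succinyl-CoA ligase, the step that makes a nucleoside triphosphate directly, pairs one alpha subunit (Suclg1) with either an ADP-using beta subunit (Sucla2) or a GDP-using one (Suclg2). Suclg2 (ENSMUSG00000061838, chromosome 6, 95473009 to 95718800, minus strand) was counted at 799 reads (48.3 CPM) in Cry2scko and at 569 reads or 30.3 CPM in Cry2flox. It was 1.59-fold higher in Cry2scko, at 0.67 (0.52 to 0.83). Sucla2 was at -0.11 (-0.16 to -0.07), with 427.5 CPM in Cry2scko and 461.7 CPM in Cry2flox, and Suclg1 at -0.09 (-0.16 to -0.02). Per length, Sucla2 remained the main beta subunit, at 76.8 FPKM in Cry2scko and 81.7 FPKM in Cry2flox, while Suclg2 had 8.25 FPKM in Cry2scko and 5.10 FPKM in Cry2flox. Sucla2 exceeded Suclg2 by 9.31 times in Cry2scko and 16.0 times in Cry2flox. The read ratio of Suclg2 to Sucla2 was 1.72 times as large in Cry2scko as in Cry2flox (1.54 to 1.93), a value that needs no scaling between libraries. A processed pseudogene, Gm15163, matches 1302 bases of a Suclg2 transcript at 98.9% identity. It is not among the counted genes, so no reads were assigned to it, and how reads matching both were handled is not known.

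**Figure D2:**
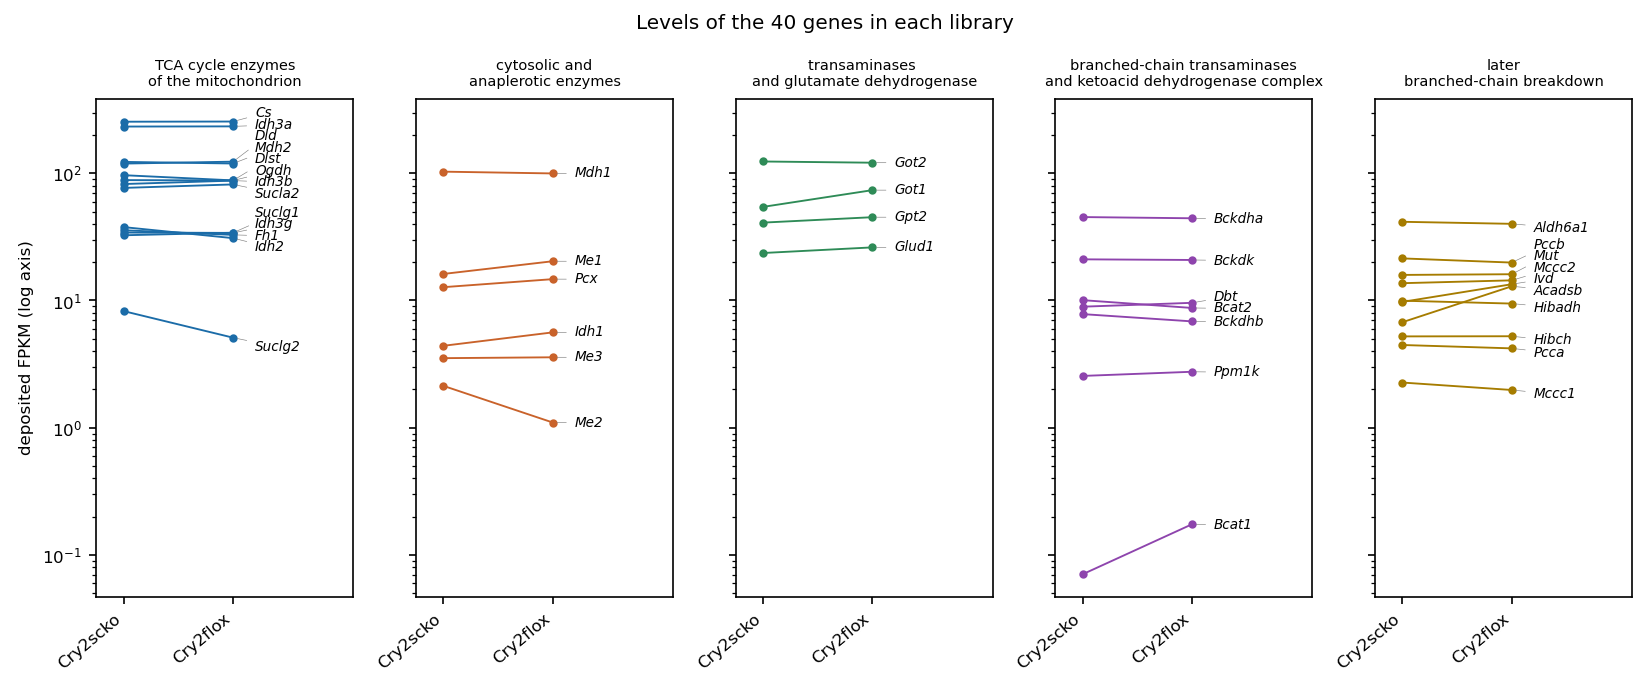
Deposited FPKM (log axis) of each gene in the Cry2scko and Cry2flox libraries, in a panel per role, with a line joining the 2 values of a gene. Most lines are flat, Acadsb and Bcat1 are lower in Cry2scko, and Suclg2 and Me2 are higher in Cry2scko without overtaking their more abundant partners Sucla2 and Me3.

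Cytosolic and anaplerotic enzymes, which refill the cycle or draw malate and citrate from it, had a median log2 ratio of -0.14. Of 6 genes, 0 passed 2-fold and 1, Me2, passed 1.5-fold. Pyruvate carboxylase (Pcx), which makes oxaloacetate from pyruvate, had 893 reads in Cry2scko and 1189 reads in Cry2flox, at -0.23 (-0.36 to -0.10). The cytosolic malic enzyme Me1, which yields NADPH, had 1484 reads or 89.7 CPM in Cry2scko and 2150 reads or 114.5 CPM in Cry2flox, at -0.35 (-0.45 to -0.26). The NAD-dependent mitochondrial malic enzyme Me2 (ENSMUSG00000024556, chromosome 18, 73769903 to 73815449) was the least counted of the 6. It had 86 reads or 5.20 CPM in Cry2scko and 51 reads or 2.72 CPM in Cry2flox, a 1.91-fold higher level at 0.93 (0.42 to 1.47). Its interval reaches past 2-fold at one end and under 1.5-fold at the other. The NADP-dependent mitochondrial form Me3 was at -0.04 (-0.17 to 0.09), and cytosolic malate dehydrogenase (Mdh1), a partner of Mdh2 in the malate-aspartate shuttle, at 0.03 (-0.03 to 0.08). Me1 matches processed pseudogenes and Me3 matches parts of other genes at over 95% identity, so their counts are less certain than those of Mdh1.

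Transaminases and glutamate dehydrogenase were level or slightly lower in Cry2scko, with a median of -0.16 and 0 of 4 past 1.5-fold. The cytosolic aspartate transaminase Got1 (ENSMUSG00000025190, chromosome 19, 43499752 to 43524605, minus strand) stood out on deep counts. It had 3430 reads or 207.4 CPM in Cry2scko and 5346 reads or 284.7 CPM in Cry2flox, 1.37-fold lower at -0.46 (-0.52 to -0.40). Its mitochondrial counterpart Got2 had 5870 reads or 354.9 CPM in Cry2scko and 6612 reads or 352.1 CPM in Cry2flox, at 0.01 (-0.04 to 0.06). A processed pseudogene, Got2-ps1, is 99.1% identical to Got2 over 1293 bases and was itself assigned 1660 reads in Cry2scko and 1768 reads in Cry2flox. With those reads added, Got2 was at 0.03 (-0.02 to 0.07). Gpt2, a mitochondrial alanine transaminase, was at -0.16 (-0.22 to -0.10), and Glud1, which releases ammonia from glutamate, at -0.17 (-0.26 to -0.08). A processed pseudogene, Glud-ps, matches 656 bases of a Glud1 transcript at 97.6% identity. It is not among the counted genes, so the Glud1 count is less certain.

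The step that commits branched-chain amino acids was nearly level. Bcat2, the mitochondrial transaminase of muscle, had 750 reads in each library, which is 45.3 CPM in Cry2scko and 39.9 CPM in Cry2flox, at 0.18 (0.04 to 0.33). The decarboxylase subunits of the ketoacid dehydrogenase complex, Bckdha and Bckdhb, were at 0.01 (-0.09 to 0.11) and 0.17 (-0.06 to 0.40). The transacylase core Dbt was at -0.12 (-0.28 to 0.04). The inhibitory kinase Bckdk had 129.7 CPM in Cry2scko and 130.0 CPM in Cry2flox, and the activating phosphatase Ppm1k was at -0.13 (-0.37 to 0.11). Bckdk exceeded Ppm1k by 8.25 times per length in Cry2scko and 7.56 times in Cry2flox, and the read ratio of the pair was 1.09 times as large in Cry2scko (0.92 to 1.30). A shift of the kinase to phosphatase balance was therefore not detectable at this depth.

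Bcat1, the cytosolic branched-chain transaminase best known from brain and from proliferating cells, was the 1 gene of the 40 past the 2-fold rule. Bcat1 (ENSMUSG00000030268, chromosome 6, 144993835 to 145076184, minus strand) was counted at 13 reads (0.786 CPM) in Cry2scko and at 37 reads or 1.97 CPM in Cry2flox. It was 2.45-fold lower in Cry2scko, at -1.29 with a wide interval of -2.36 to -0.38. Bcat1 lay just above the minimum of 1 CPM, at a mean of 1.38 CPM, and a minimum of 5 CPM would leave it out. On the deposited FPKM its log2 ratio was -0.69 with 0.1 FPKM added and -0.13 with 1 FPKM added, neither past 2-fold, beside its own 0.0705 FPKM in Cry2scko and 0.174 FPKM in Cry2flox. It was the least abundant of the 40 in both libraries, and Bcat2 exceeded it by 143 times per length in Cry2scko and 50.1 times in Cry2flox.

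The acyl-CoA dehydrogenases that follow the ketoacid dehydrogenase differed by branch. In the isoleucine branch, Acadsb (ENSMUSG00000030861, chromosome 7, 131410601 to 131448944, plus strand) had 898 reads or 54.3 CPM in Cry2scko and 1981 reads or 105.5 CPM in Cry2flox. It was 1.94-fold lower in Cry2scko, at -0.96 (-1.07 to -0.84), just short of the 2-fold rule, which its interval spans. In the leucine branch, Ivd had 1083 reads or 65.5 CPM in Cry2scko and 1717 reads or 91.4 CPM in Cry2flox, 1.40-fold lower at -0.48 (-0.59 to -0.37). In the valine branch, Acad8 had 415 reads in Cry2scko and 471 reads in Cry2flox, which is 25.1 CPM in each library, at 0.00 (-0.19 to 0.19). The read ratio of Acadsb to Acad8 in Cry2scko was 0.514 of that in Cry2flox (0.441 to 0.600). The ratio of Acadsb to Ivd was 0.719 of that in Cry2flox (0.644 to 0.802). No annotated gene shares exon bases with Acadsb or Ivd.

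With TMM scaling, enzymes after the acyl-CoA dehydrogenases had intervals that held a ratio of 1 in all 8 genes of the list. The lower ends of the Mccc1 and Pccb intervals are nearer to equality than the shift of 0.02 between TMM and total-count scaling. Whether these 2 intervals hold 1 therefore depends on the scaling. In the leucine branch, the biotin enzyme methylcrotonyl-CoA carboxylase was at 0.17 (-0.01 to 0.36) for its alpha subunit Mccc1 and at -0.09 (-0.27 to 0.08) for its beta subunit Mccc2. In the valine branch, the hydrolase Hibch was at -0.02 (-0.18 to 0.13), the dehydrogenase Hibadh at 0.05 (-0.04 to 0.15) and Aldh6a1, which makes propionyl-CoA, at 0.03 (-0.05 to 0.12). The shared route from propionyl-CoA to succinyl-CoA was at 0.07 (-0.10 to 0.23) for Pcca and 0.09 (-0.02 to 0.20) for Pccb, the carboxylase subunits. The vitamin B12-dependent mutase Mut was at -0.04 (-0.16 to 0.09). The Aldh6a1 level was 41.6 FPKM in Cry2scko and 40.1 FPKM in Cry2flox.

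Several enzymes have a cytosolic and a mitochondrial form, and the balance between them can be read within each library. Of 5 such pairs, 4 had a lower read ratio of cytosolic to mitochondrial form in Cry2scko, with an interval that excluded 1. Of all 19 pairs compared, these 5 included, 7 had an interval below 1, 4 had one above 1 and 8 held 1. On so few pairs, the 4 of 5 is not read as a shift between compartments. The Got1 to Got2 ratio in Cry2scko was 0.723 of that in Cry2flox (0.684 to 0.764), and 0.714 with the reads of Got2-ps1 added. The Idh1 to Idh2 ratio was 0.643 of that in Cry2flox (0.554 to 0.746). The Me1 to Me3 ratio was 0.807 (0.723 to 0.902), and the Bcat1 to Bcat2 ratio 0.351 (0.170 to 0.683) on the few reads of Bcat1. The exception was the Mdh1 to Mdh2 ratio, at 1.003 (0.960 to 1.05).

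**Figure D3:**
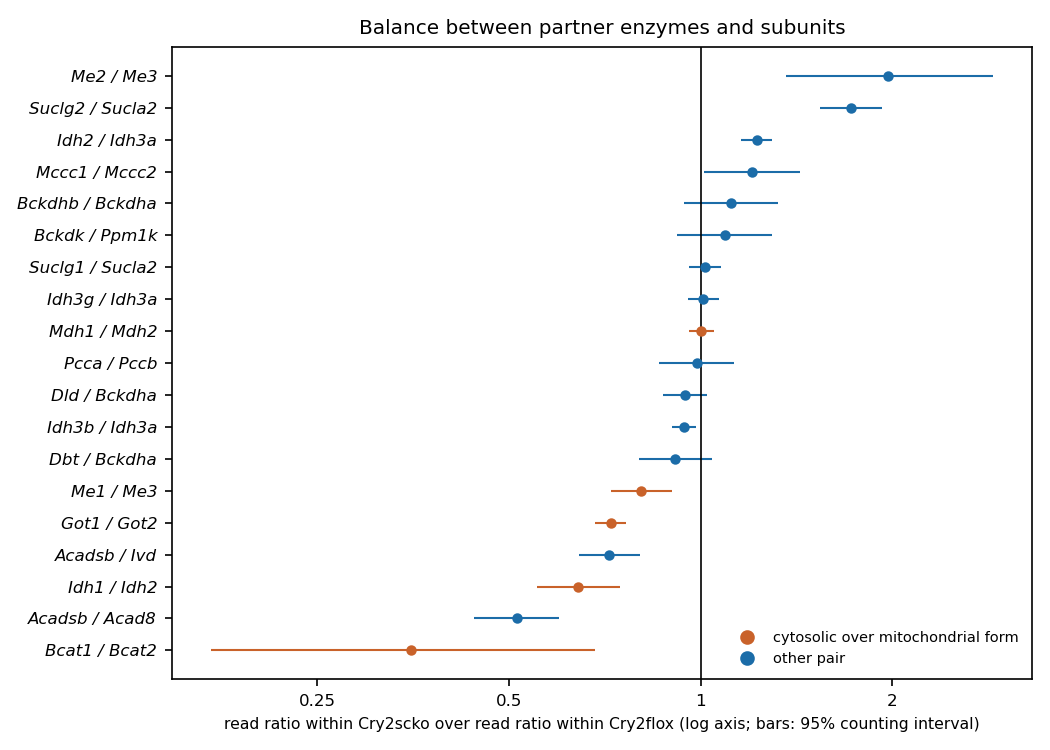
Ratio of 2 partner genes within Cry2scko over the same ratio within Cry2flox (horizontal log axis) for 19 pairs, with bars for 95% counting intervals. Of the 5 cytosolic over mitochondrial pairs (orange), 4 lie left of 1 with their whole interval and Mdh1 over Mdh2 lies on 1. Of all 19 pairs, 7 lie left of 1 with their whole interval, 4 lie right of it and 8 hold 1. Suclg2 over Sucla2 stands at 1.72.

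Transcripts of subunits of one complex were compared in the same way. Pcca to Pccb was at 0.986 (0.861 to 1.13), Idh3g to Idh3a at 1.01 (0.955 to 1.07), Suclg1 to Sucla2 at 1.02 (0.960 to 1.08) and Bckdhb to Bckdha at 1.12 (0.943 to 1.32) of their Cry2flox ratios. Idh3b to Idh3a was at 0.943 (0.903 to 0.985), and Mccc1 to Mccc2 at 1.20 (1.01 to 1.43). Outside the cytosolic pairs, the ratios furthest from 1 were those of Me2 to Me3, at 1.97 (1.36 to 2.88), of Acadsb to Acad8 and of Suclg2 to Sucla2. Levels set between genes depend on the gene lengths used by the authors, which ranged from 0.289 to 2.02 times the merged exon length of GENCODE M21 among the 40 genes. With the M21 lengths the order of Got1 and Got2 turned in both libraries, and that of Idh3b and Idh3a in Cry2flox, so no order is given for these. The ratios between libraries do not use lengths. Exons of 13 of the 40 genes overlap those of another gene, and since the use of strand in counting is not stated, such reads cannot be told apart. Among the genes that differed most, Bcat1 overlaps Gm26666, which had 0 reads in both libraries, and Me1 overlaps A330041J22Rik, which had 13 reads in Cry2scko and 4 reads in Cry2flox.

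Most genes of the further lists for the cycle and for branched-chain breakdown were also close to equal. The remaining list, of glutamine, proline, alanine and lysine metabolism, had a lower median of -0.10 and is described at the end. Of 8 further genes of the cycle and of phosphoenolpyruvate formation, 0 passed 1.5-fold and the median was -0.00. The succinate dehydrogenase subunits Sdha, Sdhb, Sdhc and Sdhd lay between -0.08 and 0.04. Of 14 further genes of branched-chain breakdown and transport, 0 passed 1.5-fold and the median was 0.02. Echs1, Hsd17b10 and Acat1, which follow Acadsb in the isoleucine branch, were at 0.05, 0.19 and 0.05. Those furthest from equality were Slc25a44, a mitochondrial carrier of branched-chain amino acids, at -0.54 (-0.78 to -0.32) with 254 reads in Cry2scko and 421 reads in Cry2flox, Slc7a5, an amino acid transporter of the plasma membrane, at -0.56 (-1.12 to -0.03) with 47 reads in Cry2scko and 79 reads in Cry2flox, and Mmaa, which helps deliver the cofactor of the mutase, at 0.51 (0.23 to 0.79). Klf15, a transcription factor known to induce branched-chain breakdown genes in muscle, had 513 reads in Cry2scko and 729 reads in Cry2flox, at -0.32 (-0.49 to -0.16).

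Markers of fibre type and of other cells also differed between the libraries. Of 10 slow-fibre genes, 6 passed 2-fold, all higher in Cry2scko, with a median log2 ratio of 1.10 and summed levels of 3020 CPM in Cry2scko and 1438 CPM in Cry2flox. Of 10 adipocyte genes, 8 were compared, 1 was lower at 2-fold, and the median of the 8 was -0.49. The sums over all 10 were 323 CPM in Cry2scko and 339 CPM in Cry2flox, with none at 0 reads. Fabp4 alone held 274.2 CPM of this in Cry2scko and 277.6 CPM in Cry2flox, so the sums say little about the other adipocyte genes. Of 10 lymphocyte genes, 8 passed 2-fold, all higher in Cry2scko, with sums of 199.9 CPM in Cry2scko and 107.7 CPM in Cry2flox and none at 0 reads. Of 10 skeletal muscle fibre genes, 0 passed 2-fold and the median was -0.08. The part of these cells or fibres in the ratios of Acadsb, Suclg2, Got1, Me1, Idh1 and Bcat1 was not tested.

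**Figure D4:**
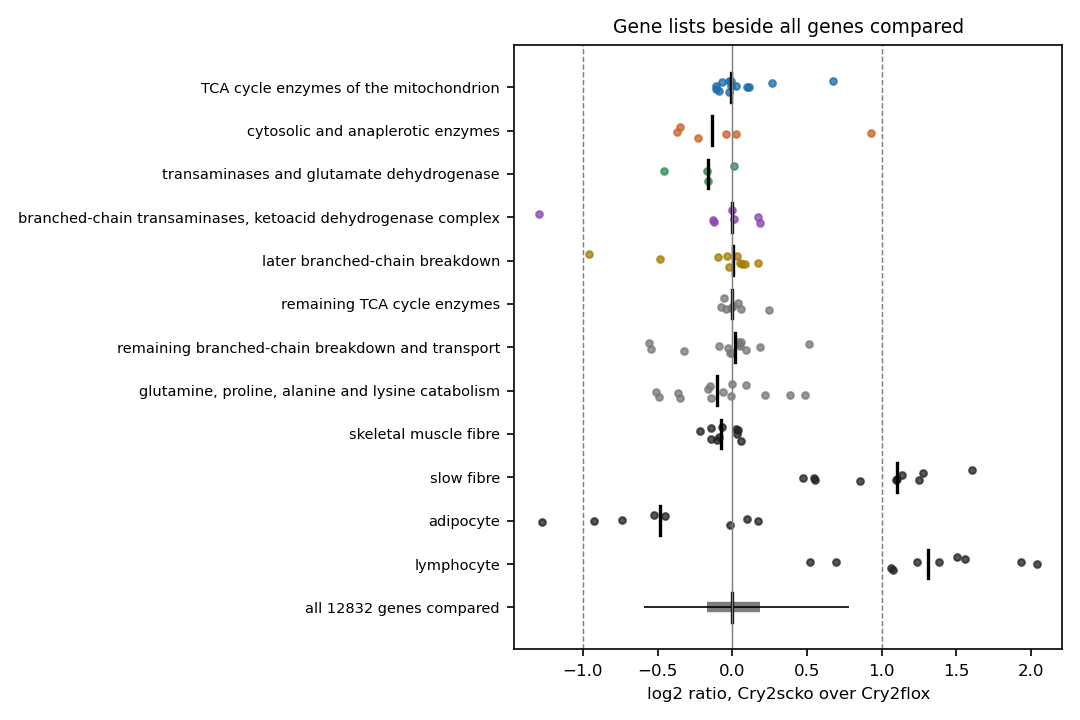
Log2 ratio of Cry2scko over Cry2flox for each compared gene of the 5 role groups (coloured), 3 further pathway lists (grey) and 4 marker lists (black points), with a bar at each median. The bottom row shows the 5th to 95th percentile (line), quartiles (block) and median of all 12832 genes. The medians of the metabolic lists run from -0.16 for transaminases and glutamate dehydrogenase to 0.02 for further branched-chain genes, while the slow-fibre and lymphocyte lists lie to the right.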

How the data were processed

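Libraries were made from total RNA of gastrocnemius for Illumina sequencing, per the labels' protocols. The submitters' processing notes name HISAT2 2.0.4, StringTie 1.3.0, CASAVA and the build GRCm38, while the read counter, annotation release and strand setting are not given in the sources used here. The authors deposited raw read counts per Ensembl gene, and FPKM values per library, per the file headers. Counts over FPKM implied the same gene length in both libraries within 0.1% for 100% of 16284 genes. GENCODE M21 gave gene names, positions and overlapping exons (34344 of 34745 identifiers named), and promoters from RefSeq.

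Library sizes were corrected by TMM (edgeR 4.0.16, R 4.3.3), with factors of 1.01 for Cry2scko and 0.993 for Cry2flox. Ratios used 0.5 added reads, and 95% intervals are Clopper-Pearson intervals of the share of a gene's reads in Cry2scko, corrected for library size. Genes with a mean of 1 CPM or more were compared, and a call needed a 2-fold ratio and an interval excluding 1. With 3 reads as the floor, a count of 0 allows up to 0.181 CPM in Cry2scko and 0.160 CPM in Cry2flox. Ratios of partner genes carry log odds intervals, exact where any count was under 200. Near copies were sought with BLAST 2.17.0 (95% identity over 200 bases). The procedure was tested on simulated counts. Python 3.11.15, numpy 2.4.6, scipy 1.17.1, pandas 2.3.3 and matplotlib 3.10.9 were used.

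The 40 genes, the lists and the rule for named genes (all 40, then listed pathway genes with the largest ratios, Cry2 and marker lists) were chosen with earlier results of these data known. The partner pairs of Acadsb and of Suclg1 were added after the values were seen. Some genes of the further pathway lists are not reported by name here. No test across animals could be made from 1 library per genotype.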

Additional observations from a re-analysis of the deposited data

How the results depend on the processing

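The median log2 ratio of the 40 genes stayed between -0.03 and 0.00 under total-count scaling, DESeq2 1.42.0 size factors, totals without mitochondrially encoded and the 20 most abundant genes, the deposited FPKM with 0.1 or 1 added, 5 reads added, no filter, a minimum of 5 CPM, the genes of 20 CPM or more (chosen after the data were seen) and without the 13 genes whose exons overlap those of another gene. Scaling moved the median of all genes by at most 0.03. The call of Bcat1, the 1 gene past 2-fold, was lost with either FPKM setting, with a minimum of 5 CPM and without genes that share exon bases, each leaving 0 genes lower and 0 in all. The last 2 settings leave Bcat1 out by construction, its overlapping gene Gm26666 having 0 reads in both libraries, and its log2 ratio was -0.13 with 1 FPKM added, far above its own FPKM. A 1.5-fold threshold gave 2 higher and 2 lower, 4 in all. Filters and the exon setting only drop genes. Of 240 single-gene ratios under the other 6 settings, 239 moved by less than the half-width of their counting interval, and Bcat1 with 1 FPKM added moved by more. Of those with an interval excluding 1, 0 changed sign. The scaling settings shift every ratio by one amount, smaller than any of these half-widths, so they could not have counted as moved or reversed. The tally does not ask whether an interval still excludes 1. No paired analysis was possible because there is 1 library per genotype, and leaving out a replicate was likewise not possible. Depth limits Bcat1 and Me2, with under 100 reads in each library.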

Other observations

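Of 16 listed genes of glutamine, proline, alanine and lysine metabolism, 14 were compared and 0 passed 1.5-fold. Of these 14, 10 had a ratio below 1, and the log2 ratios had a median of -0.10 and quartiles at -0.30 and 0.07. Glutamine synthetase (Glul), which stores ammonia as glutamine in muscle, had 3417 reads or 206.6 CPM in Cry2scko and 5451 reads or 290.3 CPM in Cry2flox. It was 1.41-fold lower in Cry2scko, at -0.49 (-0.55 to -0.43), close to the ratio of the cytosolic transaminase Got1. The succinic semialdehyde dehydrogenase Aldh5a1 was at -0.51 (-0.81 to -0.22) with 156 reads in Cry2scko and 253 reads in Cry2flox.

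The kynurenine transaminases were on the other side, with Kyat1 at 0.39 (0.12 to 0.65) and Kyat3 at 0.49 (0.12 to 0.86). Ornithine transaminase (Oat) was at 0.09 (0.01 to 0.17), and Aldh4a1, the last enzyme of proline breakdown, at -0.01 (-0.10 to 0.08). The liver-type glutaminase Gls2 had 0 reads in Cry2scko, which allows up to 0.181 CPM, and 10 reads or 0.533 CPM in Cry2flox, under the minimum for comparison. Aass, the first enzyme of lysine breakdown, had 0 reads in Cry2scko and 1 read in Cry2flox.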
